A study of Homo sapiens with 6 samples.

Results

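The RFX genes encode transcription factors that share a winged-helix DNA-binding domain. Members were taken as the rows of the deposited expression table with a symbol from RFX1 to RFX8, and 6 were found (RFX1, RFX2, RFX3, RFX5, RFX6 and RFX7) among 16792 genes. The cells were EndoC-βH1, spelled EndoCBH1 by the submitters, a beta cell line of human fetal origin, and their RNA was sequenced. The cell line is the same throughout: 3 libraries came from cells given siRNA against the homeobox factor MNX1 (siMNX1, genotype labelled MNX1 knock down), and 3 came from cells given a non-targeting siRNA (siNT, genotype labelled WT). The study's title names MNX1 as a repressor of PERCC1 that keeps somatostatin off in beta cells. The labels give no time after transfection and do not say whether replicates were separate cultures, nor whether the 3 siMNX1 libraries received the same siRNA sequence or different ones, so the p-values below speak only of how far these libraries spread, and that spread may be technical.

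RFX proteins bind the X-box, a palindromic DNA element, mostly as dimers. RFX1, RFX2 and RFX3 are activators of genes for cilia, and RFX3 is also needed for normal development of insulin-producing cells. RFX6 acts downstream of NEUROG3 in islet development, and people who lack it have neonatal diabetes. In adult beta cells it maintains genes for calcium entry and insulin secretion. RFX5 works in a complex with RFXAP and RFXANK on the promoters of MHC class II genes, and RFX7 is related to RFX5.

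The promoters of 4 of the 6 genes were found in the RefSeq table used (GRCh38.p14, from 250 bases before to 50 bases after each start), in 8 windows. RFX2 and RFX6 had no entry. Windows are shown for RFX3, which was higher with MNX1 siRNA, for RFX1, the window with most X-box half-sites, and for RFX5, whose groups of libraries also did not overlap. Capitals mark the X-box half-sites GTTGCC and GTTGCT, searched on both strands.
RFX1, chr19:14006271-14006570, minus strand: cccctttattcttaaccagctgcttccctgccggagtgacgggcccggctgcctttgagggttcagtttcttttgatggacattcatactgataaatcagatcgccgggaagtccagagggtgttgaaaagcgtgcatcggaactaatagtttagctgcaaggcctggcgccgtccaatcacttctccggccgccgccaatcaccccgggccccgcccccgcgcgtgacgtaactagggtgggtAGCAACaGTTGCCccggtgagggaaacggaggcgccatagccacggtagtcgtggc
RFX3, chr9:3525952-3526251, minus strand, first start: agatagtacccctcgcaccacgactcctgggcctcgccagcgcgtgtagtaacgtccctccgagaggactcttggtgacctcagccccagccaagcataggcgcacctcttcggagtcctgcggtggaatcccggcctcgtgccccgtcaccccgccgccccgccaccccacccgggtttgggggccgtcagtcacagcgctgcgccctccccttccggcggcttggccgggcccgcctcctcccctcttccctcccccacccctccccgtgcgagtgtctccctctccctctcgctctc
RFX3, chr9:3489385-3489684, minus strand, inner start: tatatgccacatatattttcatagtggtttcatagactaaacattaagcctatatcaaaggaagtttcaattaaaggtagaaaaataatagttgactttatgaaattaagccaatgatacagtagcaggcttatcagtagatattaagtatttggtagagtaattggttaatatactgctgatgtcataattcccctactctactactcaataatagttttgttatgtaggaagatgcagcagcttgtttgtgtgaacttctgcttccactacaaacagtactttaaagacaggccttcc
RFX5, chr1:151347203-151347502, minus strand: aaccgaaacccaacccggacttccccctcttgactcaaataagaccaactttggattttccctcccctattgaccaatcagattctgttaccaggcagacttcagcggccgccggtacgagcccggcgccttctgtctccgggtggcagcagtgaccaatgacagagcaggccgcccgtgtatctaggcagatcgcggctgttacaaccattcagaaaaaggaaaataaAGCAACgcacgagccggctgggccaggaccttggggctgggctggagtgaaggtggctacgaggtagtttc

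In the RFX1 window an AGCAAC at base 245, which is GTTGCT on the other strand, was followed by GTTGCC at base 252, counted from 1 at the 5′ end. GTTGCC was present in 12.2% and GTTGCT in 12.8% of all 35116 windows of this length. These rates are for each half-site alone, not for both side by side. Whether the order and spacing of this pair are those of a full X-box was not examined. Neither RFX3 window held GTTGCC or GTTGCT on either strand, and looser forms of the half-site were not searched. The RFX5 window shown held an AGCAAC at base 230 and 2 CCAAT boxes (the letters CCAAT, at bases 74 and 156), a motif found in 34.6% of windows on either strand. CCAAT boxes were also found in the RFX1 window (bases 175 and 197) and in the inner RFX3 window (bases 111 and 163, the second on the other strand). Among windows not shown, an RFX5 window held GTTGCT at base 69. An RFX7 window held GGCAAC, which is GTTGCC on the other strand, at base 157 and CCAAT at base 168. The homeodomain core TAATTA, present in 4.84% of all windows, was found in 0 of the 8 RFX windows. These are matches of letters and no binding was measured.

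Levels are the authors' normalized counts, as deposited. The targeted transcript, MNX1, ranged from 1988 to 2039 normalized counts in siNT and from 1708 to 1885 in siMNX1, and its log2 change was -0.18 with an adjusted p of 0.116 by limma, above the threshold of 0.05, so the knock down was not called at the RNA level. Deposited totals ran from 18406479 to 18704645 per library, values that follow the authors' normalization and are not read depths, so the reads behind each value are unknown. Among genes with a mean of at least 50, siNT and siMNX1 parted along the first principal component (39.2% of variance). Along the second (18.9%), siMNX1 replicate 2 had a score of 17.9 and the remaining 5 libraries had scores from -9.59 to 6.78. Over all genes, the set that was tested, the second component (20.1%) put siMNX1 replicate 1 at -29.4 and siMNX1 replicate 2 at 31.7, with the other 4 between -2.40 and 2.66. Of 10 beta cell identity markers all were measured, and their summed level was 145500 to 153600 in siNT and 156800 to 169300 in siMNX1. INS made up most of that sum (mean 110540 in siNT and 125390 in siMNX1, limma, adjusted p = 0.0656), and the other 9 markers summed to 38370 to 41330 and 37700 to 39080, which overlap. The median log2 change of the 10 was 0.021, with 5 above 0 and 5 below. By limma MAFA and PCSK1 were higher and G6PC2 and IAPP lower, beside 1.99% of all genes higher and 1.33% lower. IAPP, the islet amyloid gene, had low levels (mean 57.8 in siNT and 15.3 in siMNX1), and its call ended without siNT replicate 1 or 2 (adjusted p up to 0.0671).

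RFX6 was the member with the largest change. Its normalized counts were 2800, 2780 and 2771 for siNT replicates 1 to 3, against 4575, 4480 and 4641 for siMNX1 replicates 1 to 3. The siMNX1 libraries were all far above the siNT libraries, and the spread within each group was small beside the gap. The group means were 2784 ± 14.8 and 4565 ± 81.1 (SD, n = 3), a 1.64-fold difference. Its log2 change was 0.71 (SE 0.044, 95% interval 0.62 to 0.81, limma, adjusted p = 4.1e-05), which ranked 10 of 16792 genes by p. Of 2205 genes whose mean lay within 2-fold of that of RFX6, 5 had a log2 change at least as high, RFX6 included. With any 1 library left out, the RFX6 log2 change was between 0.70 and 0.73 and its adjusted p between 9.12e-05 and 0.000839. In GENCODE 29 (GRCh38) RFX6 (ENSG00000185002) spans chr6:116877212-116932163, plus strand.

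RFX3 was the other member that rose. Its normalized counts were 768, 650 and 751 for siNT replicates 1 to 3, against 1007, 1159 and 935 for siMNX1 replicates 1 to 3. The groups did not overlap, and siMNX1 replicate 2 was the highest library. The means were 723 ± 63.9 and 1034 ± 114 (SD, n = 3), and the log2 change was 0.51 (SE 0.096, 95% interval 0.30 to 0.73, limma, adjusted p = 0.0216). The RFX3 log2 change lost its call in 3 of the 6 fits that left out a library: those lacking siNT replicate 2 (0.44, adjusted p = 0.0826), lacking siNT replicate 3 (0.54, 0.0727) and lacking siMNX1 replicate 1 (0.53, 0.0693). Fitted with no variance trend in limma, it was 0.51 with an adjusted p of 0.112. Without siMNX1 replicate 2 the log2 change was 0.43 and the call was kept (limma, adjusted p = 0.0431). RFX3 (ENSG00000080298) spans chr9:3218297-3526004, minus strand.

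**Figure D1:**
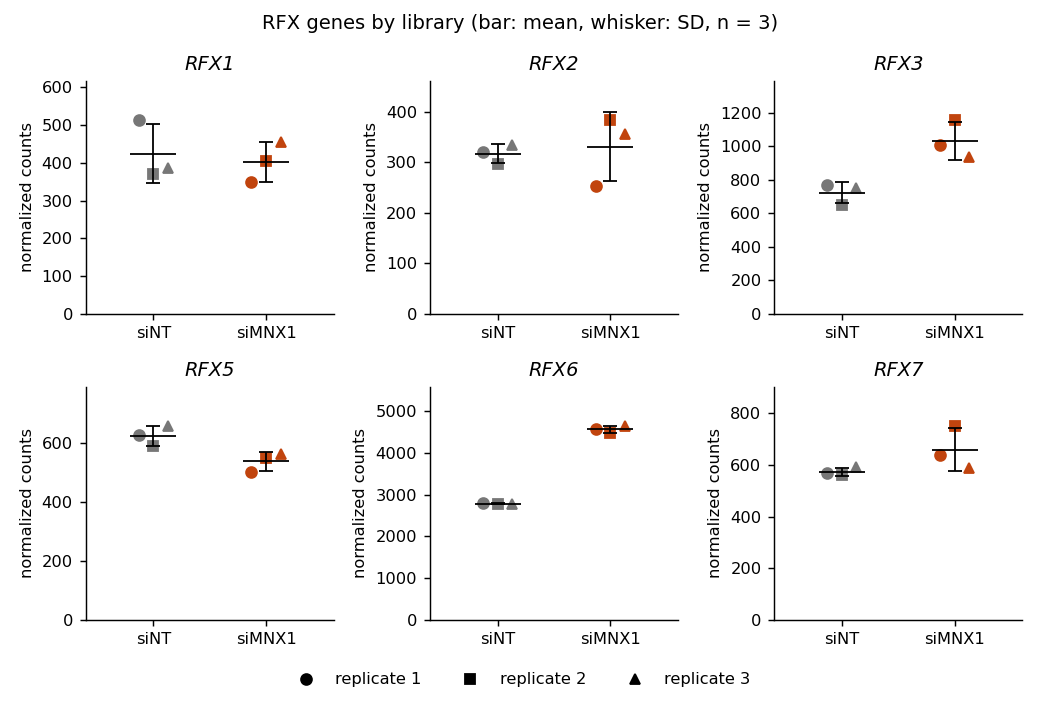
Normalized counts (y axis, starting at 0) of each RFX gene in the 3 siNT and 3 siMNX1 libraries (x axis), with points for libraries, a bar for the mean and whiskers for the SD. RFX6 runs from 2771 to 2800 in siNT and from 4480 to 4641 in siMNX1, and the RFX3 groups are also apart, whereas RFX1, RFX2 and RFX7 overlap.

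In all, 2 of 6 RFX genes were higher and 0 were lower by limma, beside 3.32% of all genes called, 1.99% higher and 1.33% lower. At an unadjusted p under 0.05 there were 3 of 6 RFX genes (2 higher and 1 lower), beside 18.4% of all genes (9.81% higher and 8.56% lower). The groups did not overlap for 3 of 6 RFX genes (2 higher and 1 lower), beside 24.0% of all genes (12.0% higher and 12.1% lower). The median log2 change was 0.12 over the 6 genes and -0.00045 over all genes. In each of the 5 fits in which RFX3 lost its call (those lacking siNT replicate 2, lacking siNT replicate 3 or lacking siMNX1 replicate 1, that with no variance trend and that with the replicate block), 1 RFX gene, RFX6, was higher.

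RFX5, the DNA-binding subunit of the MHC class II regulator, stood at 625, 588 and 657 normalized counts for siNT replicates 1 to 3 and at 501, 548 and 561 for siMNX1 replicates 1 to 3. Every siMNX1 library lay below every siNT library, by a narrow margin. The log2 change of -0.22 (SE 0.079, 95% interval -0.39 to -0.04) had an unadjusted p of 0.0223 and did not pass over all genes (limma, adjusted p = 0.183). Left-out libraries gave log2 changes from -0.26 to -0.17.

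RFX7 stood at 567, 562 and 591 normalized counts for siNT replicates 1 to 3 and at 638, 751 and 589 for siMNX1 replicates 1 to 3. The siMNX1 replicate 3 library lay inside the siNT range, and replicate 2 was again the highest. The log2 change of RFX7 was 0.19 (95% interval -0.02 to 0.41, limma, adjusted p = 0.311), and it was 0.097 without siMNX1 replicate 2.

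RFX1 and RFX2, close relatives of RFX3 in the ciliary branch of the family, showed no shift beyond the spread of the libraries. RFX1 stood at 514, 371 and 387 normalized counts in siNT and at 350, 404 and 456 in siMNX1 replicates 1 to 3, with a log2 change of -0.064 (95% interval -0.38 to 0.25, limma, adjusted p = 0.85). RFX2 stood at 322, 296 and 334 in siNT against 254, 385 and 356 in siMNX1, with a log2 change of 0.042 (95% interval -0.29 to 0.37, limma, adjusted p = 0.912). For both genes the groups overlapped, and the sign of the change depended on the libraries used: the RFX1 log2 change turned positive without siNT replicate 1 (0.082) or siMNX1 replicate 1 (0.034), and the RFX2 log2 change turned negative without siNT replicate 2 (-0.0059), siMNX1 replicate 2 (-0.076) or siMNX1 replicate 3 (-0.020). All 4 genes without a call lie on minus strands: RFX1 (ENSG00000132005) at chr19:13961538-14007039, RFX2 (ENSG00000087903) at chr19:5993164-6199572, RFX5 (ENSG00000143390) at chr1:151340640-151347357 and RFX7 (ENSG00000181827) at chr15:56087280-56243266.

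**Figure D2:**
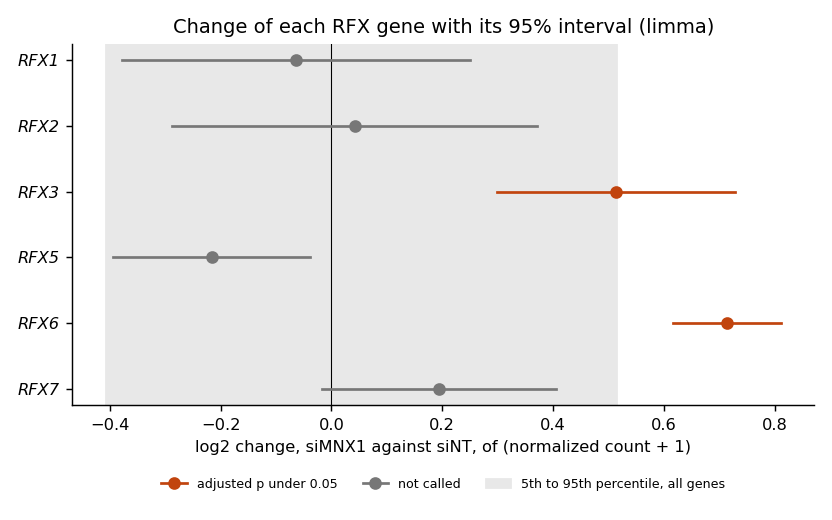
Log2 change of (normalized count + 1), siMNX1 against siNT (x axis), of each RFX gene (y axis), with the 95% interval from limma and, in grey, the range from the 5th to the 95th percentile of all genes (-0.41 to 0.52). The interval of RFX6 (0.62 to 0.81) lies outside that range, and those of RFX1, RFX2 and RFX7 include 0.

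Transcript length moved with siMNX1 replicate 2. RFX3 and RFX7 have long transcripts (9307 and 10426 bases for the longest), and RFX6 a shorter one (3460 bases). Over the 801 genes with a transcript at least as long as that of RFX3, the median deviation of a library from the gene's mean was 0.21 on the log2 scale in siMNX1 replicate 2 and between -0.10 and -0.00072 in the other libraries. The median log2 change of those genes was 0.11, with 4.12% of them higher and 0.624% lower, beside 2.01% higher and 1.34% lower over all genes with a known length. When length and GC content were corrected for, an alternative added after the data were seen, the RFX3 log2 change was 0.44 (limma, adjusted p = 0.0152), the RFX7 log2 change 0.12 (adjusted p = 0.446) and the RFX6 log2 change 0.71 (adjusted p = 2e-05).

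**Figure D3:**
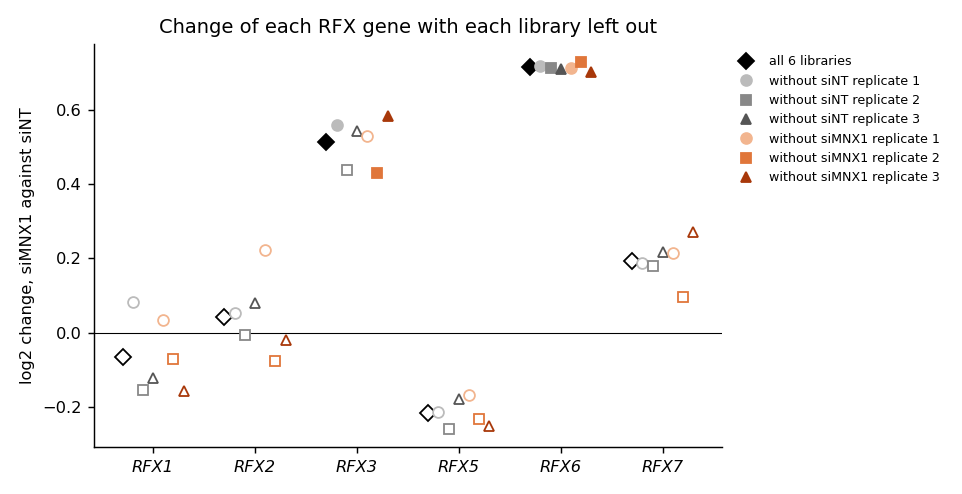
Log2 change of each RFX gene (y axis) by gene (x axis) with all 6 libraries (diamond) and with each library left out, filled where the adjusted p was under 0.05. RFX6 stays filled between 0.70 and 0.73, RFX3 is open in 3 of 6 cases, and RFX1 and RFX2 lie on both sides of 0.

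Levels of different genes were compared per kb of the longest annotated transcript. In siNT, RFX6 had 804.5 ± 4.27 normalized counts per kb (SD, n = 3), 4.62 times the next gene, RFX5 (174 ± 9.67). Then came RFX1 (97.9 ± 18.1), RFX2 (79.5 ± 4.79), RFX3 (77.7 ± 6.87) and RFX7 (55.0 ± 1.499). RFX2 and RFX3 overlapped in their ranges and so did not differ beyond their spread, while each other neighbouring pair in siNT was apart. In siMNX1 the order was RFX6 (1319 ± 23.4 per kb), RFX5 (150 ± 8.84), RFX3 (111 ± 12.3), RFX1 (93.1 ± 12.3), RFX2 (83.0 ± 17.2) and RFX7 (63.2 ± 8.004). There RFX3, RFX1, RFX2 and RFX7 each overlapped with the next. RFX6 was first in both groups also by the median transcript length, by merged exons and without division by length, but its lead over RFX5 in siNT was only 1.36 times by the median length (1448 against 1066 per kb), and the order of the others moved with the length used.

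RFX6 made up 61.3%, 64.2% and 61.9% of the summed RFX level per kb across siNT replicates 1 to 3, against 74.4%, 70.6% and 72.5% across siMNX1 replicates 1 to 3. That share depended on the length used: by the median transcript length it was 31.5% ± 1.53 in siNT and 41.2% ± 2.36 in siMNX1 (SD, n = 3), by merged exons 65.0% and 74.5%, and without division by length 51.2% and 60.7%. By the longest transcript the groups did not overlap, and the share was 10.1 percentage points higher in siMNX1 (exact two-sided permutation test, p = 0.1, the smallest that 3 against 3 libraries allow, or 0.12 adjusted over the 6 genes' shares). The sum over all 6 genes was 1289 ± 34.9 per kb in siNT and 1820 ± 38.9 in siMNX1 (SD, n = 3, exact permutation p = 0.1). The sum without RFX6 was 484 ± 32.7 and 500.5 ± 43.3 per kb (exact permutation p = 0.6). The share of RFX3 was 6.02% ± 0.382 in siNT and 6.10% ± 0.677 in siMNX1, and that of RFX5 was 13.5% ± 0.578 and 8.24% ± 0.313. Shares within a library add to a fixed total, so a higher RFX6 level by itself lowers the other shares. In level per kb, RFX3 had 77.7 in siNT and 111 in siMNX1, and RFX5 had 174 and 150.

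**Figure D4:**
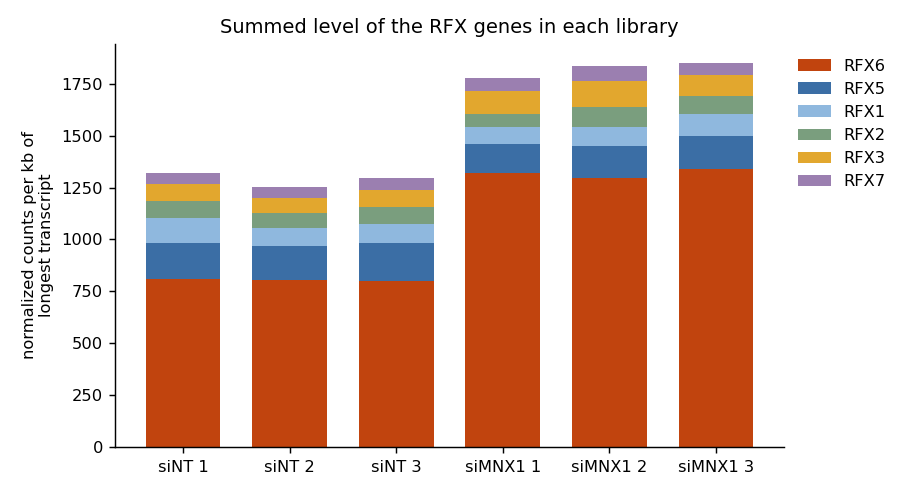
Normalized counts per kb of longest transcript (y axis, starting at 0), stacked by RFX gene for each library (x axis). The RFX6 segment is 801 to 809 per kb in siNT and 1295 to 1341 in siMNX1, and the other 5 genes together take 448 to 511 and 454 to 539.

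Members were then compared in how much they changed, as the log2 ratio of 2 members within each library, over 15 pairs. For 9 pairs the ratios of the siNT and siMNX1 libraries did not overlap, each with the smallest p this design allows (exact two-sided permutation test, p = 0.1, adjusted p = 0.167 over the 15 pairs), so no pair could pass 0.05. The difference in log2 change was -0.93 for RFX5 less RFX6, -0.78 for RFX1 less RFX6, -0.67 for RFX2 less RFX6 and 0.52 for RFX6 less RFX7, without overlap in any of these. RFX3 less RFX6 gave -0.20 with overlapping ratios (exact permutation p = 0.2, adjusted p = 0.3). The difference was 0.73 for RFX3 less RFX5, -0.58 for RFX1 less RFX3, -0.47 for RFX2 less RFX3, 0.32 for RFX3 less RFX7 and -0.41 for RFX5 less RFX7, also without overlap. In the other 6 pairs the ratios overlapped. The pairs share genes and are not independent: each pair without overlap, except RFX5 with RFX7, holds RFX6 or RFX3. The share without overlap over all pairs of genes was not computed, so the count of 9 has no background beside it.

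The surroundings of the genes were examined. Of 12 annotated genes that overlap an RFX gene in GENCODE 29, 0 were among the genes tested. Those on the opposite strand overlap RFX1, RFX2 or RFX5, and no annotated gene on the opposite strand overlaps RFX6 or RFX3. The handling of strand is not given in the sources used here. Reads from the opposite-strand genes therefore cannot be told apart from those of RFX1, RFX2 and RFX5. The nearest tested genes beside RFX6 were KPNA5, 135 kb before it, with a log2 change of 0.034 (limma, adjusted p = 0.882), and VGLL2, 333 kb after it, at -0.47 (adjusted p = 0.511) and a mean of only 19.2 in siNT. Beside RFX3, the pseudogene GPS2P1 lies 342 kb away at lower coordinates, past the end of this minus-strand gene, with a log2 change of 0.31 (adjusted p = 0.59). RFX3-AS1 starts 0.719 kb from the RFX3 start on the other strand and had 16.6 to 29.7 normalized counts in siNT and 16.5 to 31.7 in siMNX1 (log2 change 0.068, limma, adjusted p = 0.94). None of these 4 neighbours was called.

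The genes whose centred log2 values over the 6 libraries were nearest to those of RFX6, by Euclidean distance, were BCAM (0.0717), MDK (0.0924), BTG1 (0.104), POLD4 (0.121) and MVB12B (0.124). BCAM encodes a laminin-binding adhesion protein, MDK the growth factor midkine and BTG1 an antiproliferative factor. All 5 were called higher by limma, but the POLD4 call ended with any 1 library left out (adjusted p from 0.0631 to 0.13). BCAM had 3253 ± 15.0 in siNT and 5224 ± 243 in siMNX1, and MDK 5545 ± 229 and 9140 ± 116 (SD, n = 3). The genes nearest to RFX3 were GRIK3 (0.0992), BRWD1 (0.103), LINC01315 (0.11), TP53INP1 (0.112) and FBXL2 (0.117). GRIK3, a glutamate receptor subunit gene, BRWD1 and TP53INP1 were called, each losing the call in at least 3 of the 6 fits that left out a library. Like RFX3, each of these 5 was highest in siMNX1 replicate 2. This nearness describes 6 libraries in 2 groups and follows the same contrast. The genes were chosen by it, so their calls and the highest library shared with RFX3 follow in part from that choice.

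Genes tied to the RFX factors were taken from lists written with earlier results of these data known, so their counts are descriptions. Of 20 beta cell genes that background knowledge ties to RFX6 or RFX3, all were measured, and the median log2 change was 0.21. By limma 7 of them were higher and 1 was lower, beside 1.99% and 1.33% of all genes. CHGA, the granule protein chromogranin A, rose from 150360 ± 2095 to 208160 ± 6547 normalized counts (log2 change 0.47, limma, adjusted p = 0.000267). PCSK2, a prohormone convertase, stood at 1250, 1323 and 1437 in siNT against 1996, 1864 and 2030 in siMNX1 replicates 1 to 3 (log2 change 0.56, limma, adjusted p = 0.00243). UCN3, a beta cell maturation marker, stood at 369, 402 and 401 in siNT against 546, 573 and 533 in siMNX1 (log2 change 0.49, limma, adjusted p = 0.0105). The groups did not overlap for CHGA, PCSK2 or UCN3, and these calls were kept with any 1 library left out.

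The other higher genes of that list were the calcium channel genes CACNA1A (0.89) and CACNA1D (0.42), the convertase gene PCSK1 (0.40) and the insulin activator MAFA (0.56), of which CACNA1A and CACNA1D were named after their values were seen. Their calls were less firm: CACNA1A was lost without siNT replicates 1 or 2 or siMNX1 replicate 3 (adjusted p up to 0.0566), CACNA1D without siNT replicates 2 or 3 or siMNX1 replicates 2 or 3 (up to 0.141), PCSK1 without any 1 siNT library or siMNX1 replicate 1 (up to 0.108), and MAFA without siNT replicates 2 or 3 or siMNX1 replicate 1 (up to 0.0699). The list held 3 higher genes without siNT replicate 2 and 4 without siNT replicate 3. G6PC2, a glucose-6-phosphatase subunit of islets, fell from 10965 ± 758 to 8540 ± 237 (log2 change -0.36, limma, adjusted p = 0.00855). ABCC8 and KCNJ11, the subunits of the ATP-sensitive potassium channel, had log2 changes of -0.016 and -0.050. Both were named after their values were seen, and neither was called.

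Of 25 islet transcription factors that act with RFX6 or RFX3, 19 were measured, and their median was -0.0015. Of these, 1 was higher (MAFA) and 0 were lower, beside 1.99% and 1.33% of all genes. MAFA stood at 398, 331 and 332 in siNT against 526, 516 and 516 in siMNX1 replicates 1 to 3 (limma, adjusted p = 0.0131), and as above its call did not survive the loss of siNT replicates 2 or 3 or siMNX1 replicate 1, after which 0 factors were called. The partner factors NEUROD1, NKX2-2, PAX6 and PDX1, named after their values were seen, had adjusted p of 0.598, 0.408, 0.281 and 0.559 by limma.

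Of 40 ciliary genes, all were measured, and 2 were higher and 0 were lower by limma, beside 1.99% and 1.33% of all genes. An unadjusted p under 0.05 was found for 9 of the 40, beside 18.4% of all genes. A log2 change above 0 was found for 29, beside 49.9% of all genes. The median was 0.074. BBS9, a subunit of the BBSome that moves cargo in cilia, stood at 75.7, 85.4 and 85.3 in siNT against 191, 152 and 132 in siMNX1 replicates 1 to 3 (log2 change 0.93, limma, adjusted p = 0.0172). WDR35, a component of intraflagellar transport complex A, stood at 797, 835 and 798 in siNT against 993, 1053 and 984 in siMNX1 (log2 change 0.32, limma, adjusted p = 0.0266). In both, every siMNX1 library was above every siNT library. The BBS9 call ended without any 1 siNT library or without siMNX1 replicate 1 (adjusted p up to 0.0645), and the WDR35 call ended with any 1 library left out (0.0566 to 0.116), so that 0 ciliary genes were called in 4 of 6 cases and 1 in the other 2. FOXJ1, the master regulator of motile cilia and named after its values were seen, had 270 to 297 in siNT and 348 to 405 in siMNX1 (log2 change 0.37, limma, adjusted p = 0.0707), and it passed with the length and GC correction (0.049). An X-box half-site was found in the promoters of 17 of the 32 ciliary genes with a RefSeq window, beside 27.1% of all genes with one. The same count was 2 of 13 for the beta cell genes tied to RFX6 or RFX3, 2 of 7 for the RFX5 complex and MHC class II, 4 of 11 for the islet factors and 3 of 12 for the genes held low. BBS9 and WDR35 had no window.

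Of 20 genes of the RFX5 complex and MHC class II, 10 were measured and 0 were called by limma, beside 3.32% of all genes. Of the 10, 2 had an unadjusted p under 0.05, beside 18.4% of all genes, and the median was -0.029. RFXAP and RFXANK, the partner subunits of RFX5, named after their values were seen, had 582 ± 44.4 and 630 ± 35.2 in siNT and 574 ± 42.7 and 589 ± 60.3 in siMNX1 (SD, n = 3). CD74, the invariant chain that escorts MHC class II proteins, had 4426 to 4685 in siNT and 3911 to 4269 in siMNX1, without overlap (log2 change -0.18, limma, adjusted p = 0.0975). B2M, the light chain of MHC class I, had a log2 change of 0.20 (limma, adjusted p = 0.129) and passed when siMNX1 replicate 2 was left out (adjusted p = 0.0484). CIITA, the class II coactivator and also named after its values were seen, was low and scattered, at 16.2 to 96.2 in siNT and 30.0 to 58.8 in siMNX1.

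Of 20 genes that mature beta cells hold low, 14 were measured and 0 were called by limma, beside 3.32% of all genes. Of the 14, 5 had an unadjusted p under 0.05, beside 18.4% of all genes, and the median was -0.065. Those 5 went both ways: LDHA, OAT and ACOT7 were lower, and REST (log2 change 0.64, limma, adjusted p = 0.111) and MAF (0.29, 0.0638) were higher. OAT, ACOT7, REST and MAF were named after their values were seen. LDHA, lactate dehydrogenase, stood at 4561, 3688 and 3091 in siNT against 2826, 2140 and 2690 in siMNX1 replicates 1 to 3. The groups did not overlap, but the siNT libraries were far apart (log2 change -0.56, limma, adjusted p = 0.0622), and LDHA passed without siNT replicate 3 (0.0484). FCGRT, the most abundant of the list, had a log2 change of 0.11 (adjusted p = 0.319).

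**Figure D5:**
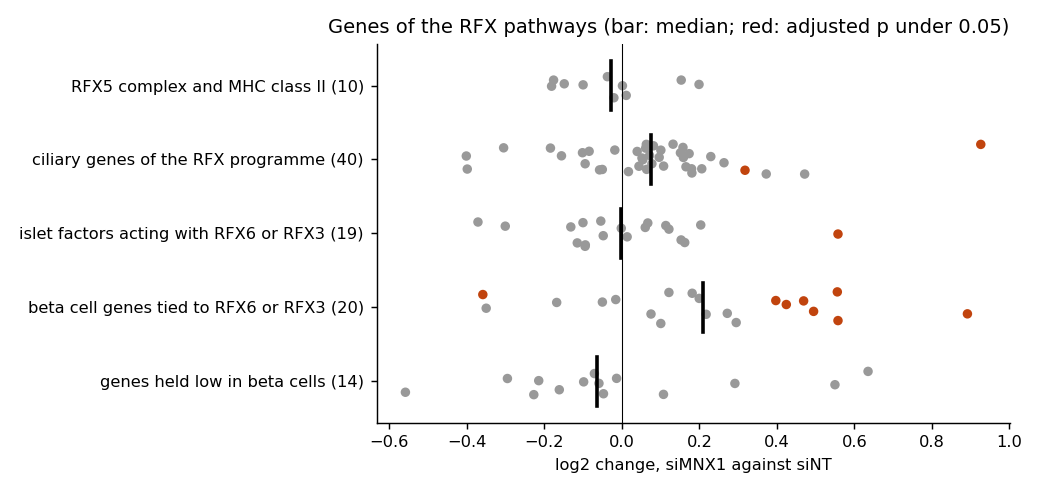
Log2 change, siMNX1 against siNT (x axis), of each measured gene of the 5 RFX-related lists (y axis, with the number measured), red where the adjusted p was under 0.05 and with a bar at the list's median. The beta cell genes have a median of 0.21 with 7 higher and 1 lower, and the other 4 medians lie between -0.065 and 0.074.

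Markers of other cell types moved in the same libraries. Of 19 markers of other islet and pancreatic cells, 10 were measured and the rest were not analysed here. Of the 10, 2 were higher and 1 was lower by limma, beside 1.99% and 1.33% of all genes. Their summed level was 11070 to 11890 in siNT and 11650 to 12580 in siMNX1, which overlap. Without TTR, the most abundant of them, the other 9 summed to 3816 to 4234 and 4561 to 4721. SST, the somatostatin gene of delta cells, had 207 to 239 in siNT and 832 to 881 in siMNX1, and HHEX, a delta cell factor, 41.9 to 61.1 and 458 to 507. RBP4, also a delta cell marker, fell from 981 ± 26.8 to 507 ± 54.5 (log2 change -0.96, limma, adjusted p = 0.000451). RFX6 is expressed in all islet endocrine cell types, and in bulk RNA more cells of a type and more RNA per cell cannot be told apart. The part of these markers in the RFX6 and RFX3 values was not tested.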

How the data were processed

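RNA of 6 EndoC-βH1 libraries was made from 5 ng of total RNA each, with ribosomal RNA removed, per the labels' protocols. The molecule field of the labels instead reads polyA RNA, so which RNAs the values include is uncertain. The authors deposited a signal per gene, normalized counts with decimals. The submitters' processing notes list the build GRCh38 and, without saying what each did, RSEM 1.3.1, STAR 2.7.6a, DESeq, DESeq2 1.26.0 and R 3.6.3. For the gene filter, strand and annotation, the authors' choices were not given in the sources used here. Of values under 10, only 25.8% to 47.4% per library lay within 0.02 of a whole multiple of one step, so reads were not recovered, depth is unknown and count models were not used.

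Values were analysed as log2(value + 1), which understates changes of low genes, with limma 3.58.1 (R 4.3.3), a variance trend and Benjamini-Hochberg adjustment over all 16792 genes, at an adjusted p of 0.05. A minimum mean of 5 removed 0 genes. The procedure was run on simulated data with independent noise for each gene. Those data did not include the length-related deviation of siMNX1 replicate 2, so they say nothing about it. Single values were compared by exact permutation tests. Positions and transcript lengths came from GENCODE 29, promoters from RefSeq (GRCh38.p14). Other steps used scipy 1.17.1, pandas 2.3.3, numpy 2.4.6 and matplotlib 3.10.9 in Python 3.11.15. No pair of libraries shared an identical value above 0.

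The members, lists and tests were chosen with earlier results of these data known. Named genes were the RFX genes, MNX1, up to 4 called members of each list by adjusted p (or the 2 most abundant where none was called), the 5 genes nearest in pattern to RFX6 and to RFX3, and tested genes overlapping a member or next to a called one. RFXAP, RFXANK, CIITA, FOXJ1, CACNA1A, CACNA1D, ABCC8, KCNJ11, NEUROD1, NKX2-2, PAX6, PDX1, OAT, ACOT7, REST and MAF are outside this rule and were chosen after their values were seen. INS and TTR, the most abundant genes of their marker lists, are also outside this rule. Alternatives were other pseudocounts, filters, scalings, variance models, a replicate block, other transcript lengths, and each library left out, with a length and GC correction added after the data were seen.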

Additional observations from a re-analysis of the deposited data

How the results depend on the processing

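RFX6 was higher and called under every alternative run. Pseudocounts, filters, scalings, the robust variance model and the length and GC correction left the RFX members higher and lower as they were. Without the variance trend RFX3 was not called (log2 change 0.51, adjusted p = 0.112), 1 RFX gene was higher, and 131 genes in all were higher and 60 lower, where the reported fit has 335 and 223. In that setting higher genes numbered 0 of the ciliary genes, 0 of the islet factors, 3 of the beta cell genes (0 lower) and 0 of the identity markers (0 lower, as against 2 higher and 2 lower). With a minimum mean of 50, 1 identity marker was lower, since IAPP was no longer tested.

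Among genes with a mean of at least 50, same-numbered libraries of the 2 groups did not deviate together (correlations of -0.0779, -0.0792 and -0.0705). No shared effect was seen, but these values cannot say whether the numbers pair the libraries, which the labels do not state. With the replicate block the RFX3 log2 change was 0.51 (adjusted p = 0.0732), 1 RFX gene was higher, 0 ciliary genes were higher, and 162 genes were higher and 75 lower.

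With each library left out, the RFX3 log2 change ran from 0.43 to 0.58, the RFX1 log2 change from -0.16 to 0.082 and the RFX2 log2 change from -0.076 to 0.22. Differences in log2 change ran from -0.20 to 0.029 for RFX1 against RFX2 and from -0.29 to 0.0078 for RFX2 against RFX7. RFX genes higher numbered 1 to 2, all genes higher 133 to 257 and all genes lower 65 to 179. List genes higher numbered 0 to 1 for the RFX5 complex, 0 to 1 for cilia, 0 to 1 for islet factors, 3 to 6 for beta cell genes and 0 to 2 for identity markers; lower ones numbered 0 to 1 for genes held low and 1 to 2 for identity markers. Small changes turned sign: the RFXAP log2 change ran from -0.085 to 0.036, the RFX3-AS1 log2 change from -0.17 to 0.35 and the KPNA5 log2 change from -0.028 to 0.071, and the last was -0.065 with the length and GC correction. The cause of these changes was not tested, and each fit that left out a library has fewer samples. The reads behind each value are unknown, so no counting error was given.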
